A study of Saccharomyces cerevisiae with 4 samples.

Results

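The genes described here encode the RNA polymerase I and III machinery of budding yeast, Saccharomyces cerevisiae. They were taken from a list of 40 gene symbols, which were matched through their locus tags to the yeast probes of the array, and all 40 were found among 6225 genes on it. The list holds every subunit of both enzymes except Rpc10, the factors that recruit polymerase I to the ribosomal DNA, the factors TFIIIC and TFIIIB of polymerase III, and the repressor Maf1. In terms of role there were 7 genes for subunits found only in polymerase I, 10 for subunits found only in polymerase III, 2 for subunits shared by these enzymes and 4 for subunits shared with polymerase II. There were also 8 genes for polymerase I initiation factors, 6 for TFIIIC, 2 for TFIIIB and 1 for Maf1.

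RNA polymerase I transcribes the large ribosomal RNA precursor, and RNA polymerase III makes transfer RNAs, the smallest ribosomal RNA and other short RNAs. Together they supply most of the RNA of a growing yeast cell, and their output is tied to nutrients through the TOR and protein kinase A pathways. Maf1, when it is dephosphorylated, binds polymerase III and represses it. Messenger RNAs for ribosome production genes, polymerase I and III subunits among them, are known to go down in the general stress response of yeast.

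RNA was compared between untreated cultures (0 min) and cultures harvested 90 min after addition of 6 nM 17β-estradiol, which induces Msn2A6. Msn2 is an activator of general stress genes, and the A6 form is one that protein kinase A cannot hold back. All cultures were in the strain labelled BY4741, a haploid of mating type a, and were grown in rich glucose medium at 30 °C in 50 ml. Both groups carried the same inducible construct, whose promoter the sources used here do not name, and each group held 2 samples described as biological replicates. No culture was left untreated for 90 min, and no strain without the construct was given estradiol, so the hormone, Msn2A6 and further growth cannot be told apart.

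Each sample was hybridised to 1 one-colour array, and all 4 arrays lay on the same slide. The 75th percentile of the yeast spots was 8084 to 9694 intensity units, against a median background of 20.5 to 21. MSN2 rose 5.55-fold (log2 change 2.47 ± 0.09, SE, n = 2 per group, adjusted p = 1.34e-06). The MSN2 change was smaller, though still past the threshold, in the deposited value table (1.82) and after normexp background correction (1.705). The probes of HIS3, LEU2, MET17 and URA3, genes that BY4741 is described as lacking or carrying in disabled form, were well above background on all arrays. HIS3, LEU2 and MET17 had log2 changes of -0.86, -0.91 and -1.08, all with adjusted p under 0.05 from limma, and URA3 rose. The URA3 change was -0.14 and did not pass when levels were set relative to the spike-in probes. Whether these signals fit the strain label was not tested. The genes MFA1, MFA2, STE2 and BAR1, which cells of mating type a express, were also well above background, as were MF(ALPHA)1, MF(ALPHA)2 and STE3, which belong to the opposite mating type. Between 6151 and 6191 of the 6256 yeast probes were well above background on each array, so being so says little about any of these genes.

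Levels are given below as log2 signal relative to the 75th percentile of the same array, so that 0 stands for a signal at that percentile. A change is the mean level at 90 min minus the mean level at 0 min. The SE given with a change is limma's moderated SE, which also draws on the spread of all probes tested. It can therefore be wider or narrower than the gene's own replicates would give. A gene is said to have risen or fallen only where limma gave an adjusted p under 0.05 over all probes tested. All 40 genes were well above background on the 4 arrays, as were 6151 to 6191 of the 6256 yeast probes on each array. The median gene of the array had a change of -0.13 on this scale. Unscaled signals put that median at -0.32, and levels set relative to the spike-in probes put it at -0.58, because the latter lowers every change by 0.45. Omitting the scaling lowers every change by 0.19. Calls with no scaling or with spike-in scaling thus hold a shift common to all genes, and are not separate evidence for each gene.

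After 90 min, 28 of the 40 genes had fallen, 2 had risen and 10 did not pass. That is 70.0% fallen against 46.2% of all genes tested, and 5.0% risen against 30.3%. In either direction 30 of the 40 genes passed, against 76.5% of all genes. The falls were small, from 1.16-fold to 1.79-fold, and none reached 2-fold, as 3.87% of all genes did. At least 1.5-fold falls were found for 6 of the 40 genes (15.0%), a share near the 14.2% of all genes. The median change of the 40 genes was -0.31, and 29 of them lay below the median of all genes. At 0 min and at 90 min the arrays did not overlap for 36 genes (90.0%), close to the 88.4% seen over all genes.

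**Figure D1:**
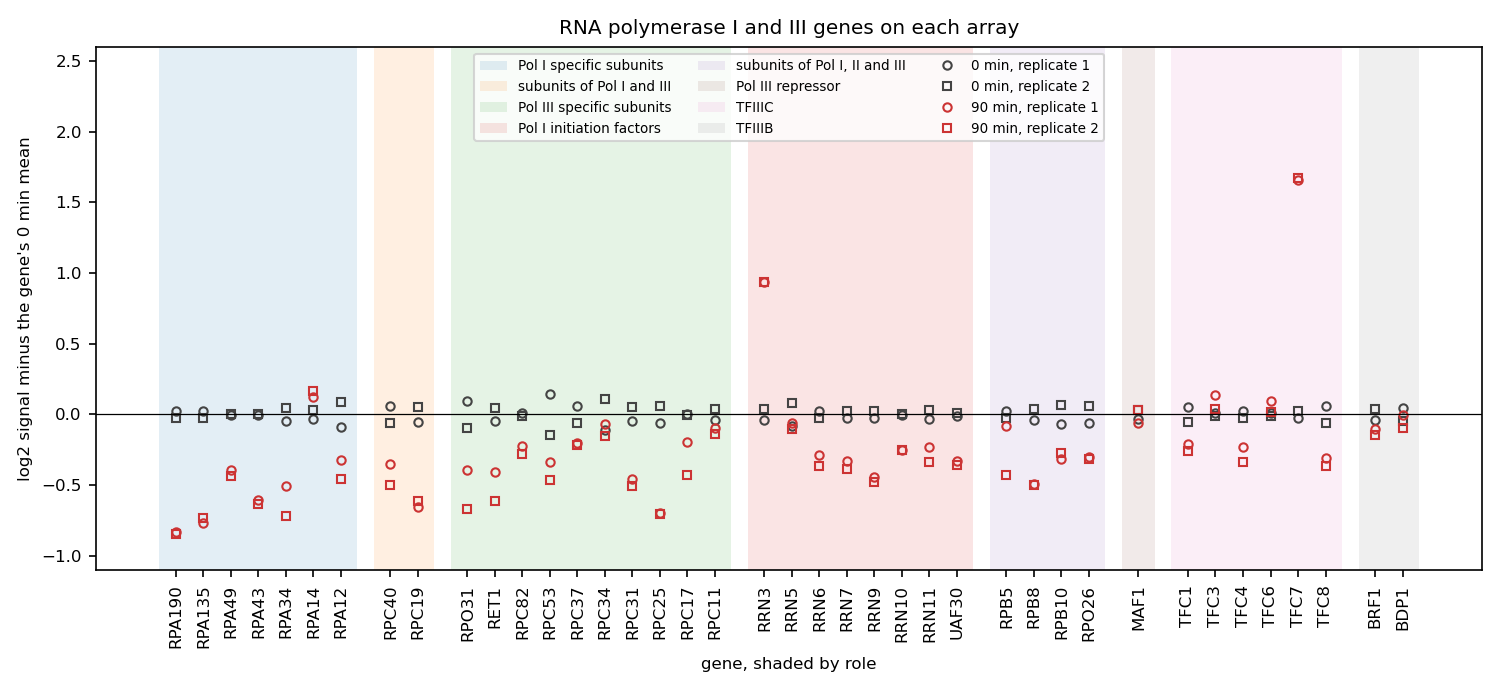
Log2 signal of each of the 40 genes on each array, given relative to the mean of that gene's 0 min arrays and shaded by role. Grey symbols are the 2 arrays at 0 min and red symbols the 2 arrays at 90 min, and the red symbols of RRN3 and TFC7 stand well above the rest.

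The subunits that belong only to polymerase I had the lowest median, -0.61, with 6 of 7 genes fallen, beside 46.2% of all genes. RPA190 encodes the largest subunit, which forms the active site together with Rpa135. Its level was 0.83 and 0.79 at 0 min, and -0.02 and -0.03 at 90 min. The arrays of a time point lay within 0.05 of each other and the time points were far apart. The fall was 1.79-fold, with a change of -0.84 ± 0.06 (SE, adjusted p = 2.08e-05), and 6.36% of all genes had a lower change. RPA135, for the other large subunit, stood at 0.31 and 0.26 at 0 min and at -0.49 and -0.45 at 90 min. It fell 1.68-fold (change -0.75 ± 0.06, adjusted p = 3.72e-05). These genes had the lowest changes of the 40.

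RPA43 and RPA14 encode the stalk of polymerase I, through which the enzyme meets its initiation factor. RPA43 had levels of -0.53 and -0.53 at 0 min and of -1.13 and -1.17 at 90 min. It fell 1.54-fold, with a change of -0.62 ± 0.05 (adjusted p = 7.69e-05). RPA14 was the member of this group that did not fall. It measured -0.44 and -0.38 at 0 min and -0.29 and -0.25 at 90 min, so that both later arrays were slightly higher. Its change of 0.14 ± 0.06 missed the threshold (adjusted p = 0.0561, 95% confidence interval 0.0057 to 0.28). RPA14 passed as a rise with scaling on the array median (0.19), with quantile normalization (0.15) and with a trended prior, whereas unscaled signals gave -0.05 and spike-in scaling -0.31, neither of which passed.

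The remaining polymerase I subunits fell between these extremes. RPA34 and RPA49 encode a heterodimer that aids initiation and elongation, and RPA12 a subunit for RNA cleavage and termination. RPA34 stood at -0.36 and -0.27 at 0 min and at -0.82 and -1.03 at 90 min, a change of -0.61 ± 0.08 (adjusted p = 0.000627). RPA49 changed by -0.41 ± 0.06 (adjusted p = 0.000545) and RPA12 by -0.39 ± 0.08 (adjusted p = 0.00433). RPC19 and RPC40, which form the assembly platform common to polymerases I and III, both fell. RPC19 had levels of 1.30 and 1.40 at 0 min and of 0.69 and 0.73 at 90 min, which is a 1.55-fold fall (change -0.63 ± 0.06, adjusted p = 0.000127). For RPC40 the change was -0.42 ± 0.08 (adjusted p = 0.0021).

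**Figure D2:**
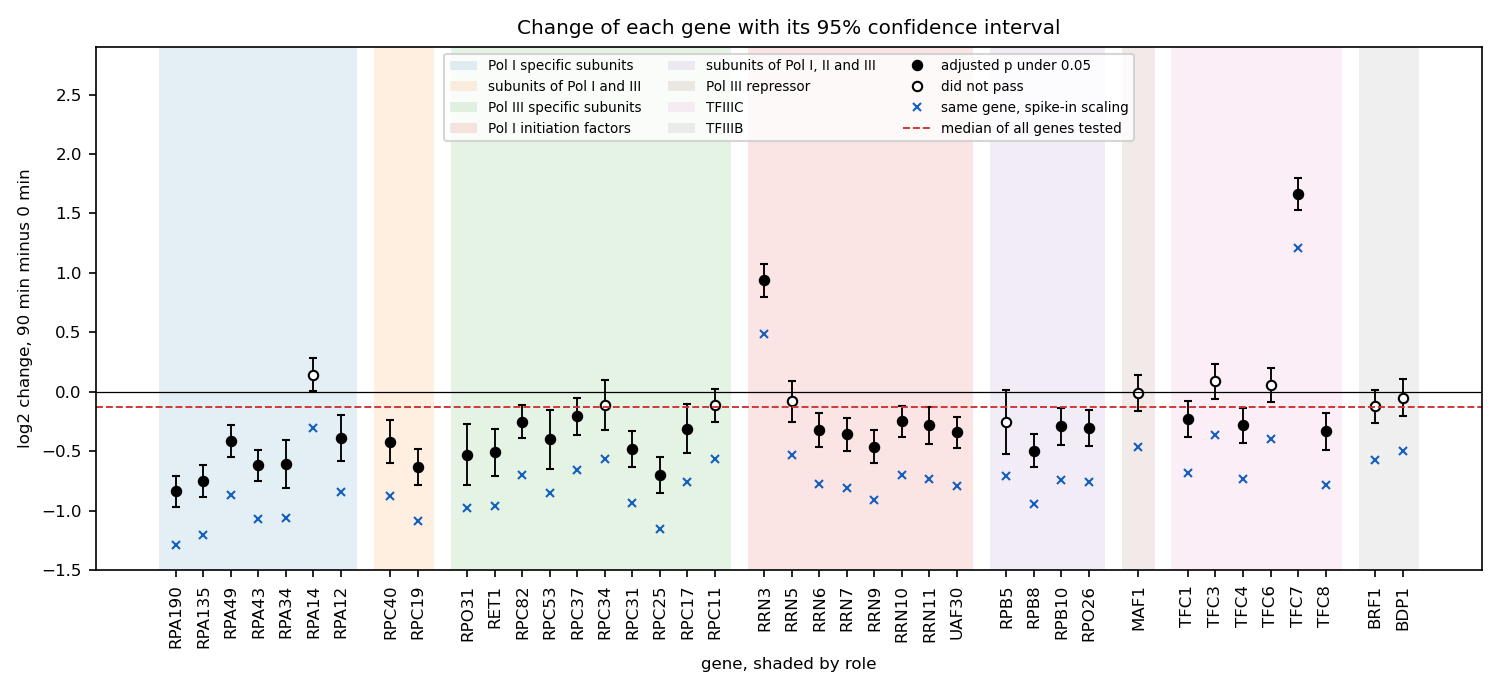
Log2 change of each gene, 90 min minus 0 min, with its 95% confidence interval from limma; filled points passed the threshold, open points did not, and blue crosses give the same change with spike-in scaling. The dashed line marks the median of all genes tested at -0.13, and RPA190 at -0.84 and TFC7 at 1.67 are the lowest and highest of the 40.

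Among the subunits found only in polymerase III, 8 of 10 genes fell, beside 46.2% of all genes, and the median change was -0.35. RPC25 had the lowest change of this group. Its protein forms the polymerase III stalk with Rpc17, in the same position as Rpa43 and Rpa14 in polymerase I. RPC25 stood at -0.82 and -0.71 at 0 min and at -1.46 and -1.47 at 90 min, a 1.62-fold fall (change -0.70 ± 0.06, adjusted p = 8.52e-05). RPC17 changed by -0.31 ± 0.08 (adjusted p = 0.0134). Its arrays at 90 min differed, at -3.58 and -3.81, and its call was lost when either 0 min array was left out (changes -0.30 and -0.32) and without replicate 2 at 90 min, where the change was -0.19.

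RPO31 and RET1 encode the largest subunits of polymerase III, the partners that hold its active site. RPO31 had levels of -1.17 and -1.36 at 0 min and of -1.66 and -1.93 at 90 min. It fell 1.44-fold (change -0.53 ± 0.11, adjusted p = 0.00367), with one of the wider spreads among the 40 genes. RET1 stood at 0.10 and 0.19 at 0 min and at -0.26 and -0.46 at 90 min, and fell 1.42-fold (change -0.51 ± 0.08, adjusted p = 0.00129). For both genes the 90 min arrays were lower than both 0 min arrays.

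The heterotrimer of RPC82, RPC34 and RPC31 opens the DNA at initiation and contacts TFIIIB, and its genes differed. RPC31 fell 1.40-fold (change -0.48 ± 0.06, adjusted p = 0.00047) and RPC82 fell 1.19-fold (change -0.25 ± 0.06, adjusted p = 0.00602). RPC34 did not pass, with levels of 0.03 and 0.26 at 0 min and of 0.08 and -0.01 at 90 min. These arrays overlapped between the time points, and the change was -0.11 ± 0.09 (adjusted p = 0.277, 95% confidence interval -0.32 to 0.097). RPC34 passed as a fall on unscaled signals (-0.30) and under spike-in scaling (-0.56).

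Termination and reinitiation depend on RPC53, RPC37 and RPC11, the last of which cleaves the nascent RNA. RPC53 changed by -0.40 ± 0.10 (adjusted p = 0.0108), and by -0.26 without replicate 1 at 0 min. RPC37, one of the dimmest of the 40 probes at 187 to 266 intensity units, changed by -0.21 ± 0.06 (adjusted p = 0.0207). That call did not hold without replicate 1 at 0 min (change -0.15), without either 90 min replicate (-0.21 and -0.20) or after normexp background correction (-0.13), while quantile normalization gave -0.48 and the deposited value table -0.42. For RPC11 the change was -0.12 ± 0.06 and did not pass (adjusted p = 0.11), although both 90 min arrays lay below both 0 min arrays. RPC11 passed as a fall on unscaled signals (-0.31) and under spike-in scaling (-0.57).

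The subunits that polymerases I, II and III have in common had a median change of -0.30, with 3 of 4 genes fallen, beside 46.2% of all genes. RPB8 stood at 1.12 and 1.20 at 0 min and at 0.67 and 0.66 at 90 min, and fell 1.41-fold (change -0.50 ± 0.06, adjusted p = 0.000305). RPO26 changed by -0.31 ± 0.06 (adjusted p = 0.00407) and RPB10 by -0.29 ± 0.07 (adjusted p = 0.00594). RPB5 did not pass, at -0.26 ± 0.11 (adjusted p = 0.0735), and the replicates at 90 min differed by more than those of any other gene of the 40, with levels of -1.09 and -1.44. Its change was -0.43 and passed without replicate 1 at 90 min, and was -0.08 without replicate 2 (adjusted p = 0.351). RPB5 also passed as a fall after normexp correction (-0.24), in the deposited value table (-0.23), on unscaled signals (-0.45), under spike-in scaling (-0.71) and with a trended prior. RPC10, the shared subunit gene that the list leaves out, was looked at after the other values were seen and fell by 0.32 ± 0.06 (adjusted p = 0.00295).

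Subunits used only by polymerase II were counted beside these as a list of 7 genes. Of them, 4 fell and 3 did not pass, beside 46.2% fallen over all genes, and the median change was -0.19. RPB9 changed by -0.30 ± 0.06, RPB2 by -0.25 ± 0.07, RPB3 by -0.21 ± 0.06 and RPB7 by -0.19 ± 0.07. The calls of RPB2, RPB3 and RPB7 depended on single arrays: RPB2 no longer passed when replicate 1 at 0 min (-0.21) or the second 90 min array (-0.17) was left out, RPB3 when replicate 2 at 0 min (-0.17) or the first 90 min array (-0.19) was, and RPB7 when either 0 min array (-0.17 and -0.20) or the second 90 min array (-0.11) was. RPB7 also missed the threshold with median scaling, with quantile normalization and with no filter. The medians thus stood at -0.61 for polymerase I, -0.35 for polymerase III, -0.19 for polymerase II and -0.13 for all genes; the differences between these medians were not tested.

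**Figure D3:**
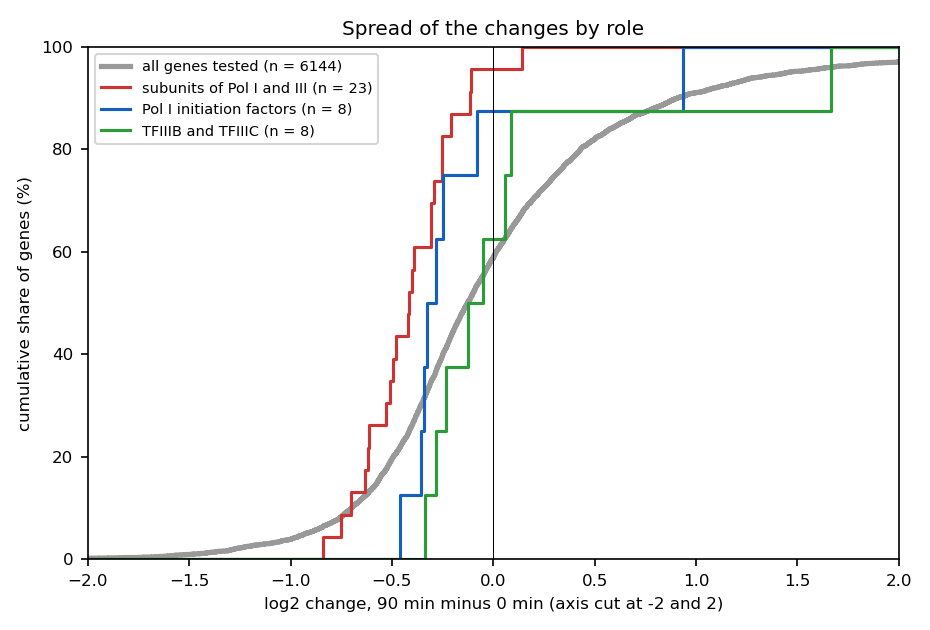
Cumulative share of genes, in percent, at or below each log2 change from 0 to 90 min, for all 6144 genes tested, the 23 polymerase I and III subunit genes, the 8 polymerase I initiation factor genes and the 8 TFIIIB and TFIIIC genes. The subunit curve lies to the left of the curve of all genes over most of its range, and the TFIIIB and TFIIIC curve crosses it.

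RRN3 stood apart from the other polymerase I initiation factors. Rrn3 binds the Rpa43 stalk and carries the enzyme to the promoter, and it is a point at which nutrients control ribosomal RNA synthesis. The RRN3 level was -1.08 and -1.01 at 0 min, and -0.11 and -0.11 at 90 min. Replicates lay close together and the time points did not overlap. RRN3 rose 1.91-fold, with a change of 0.94 ± 0.06 (adjusted p = 1.48e-05), and 90.4% of all genes had a lower change. With spike-in scaling the change was 0.48 and still passed.

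The other 7 genes of this group encode the core factor and the upstream activating factor, which sit on the ribosomal DNA promoter. In the core factor, RRN7 changed by -0.36 ± 0.06 (adjusted p = 0.00136), RRN6 by -0.33 ± 0.06 (adjusted p = 0.00242) and RRN11 by -0.28 ± 0.06 (adjusted p = 0.00602), so that all its genes fell. In the upstream activating factor, RRN9 fell 1.38-fold, from levels of -1.09 and -1.04 to levels of -1.51 and -1.55 (change -0.46 ± 0.06, adjusted p = 0.000363). UAF30 changed by -0.34 ± 0.05 (adjusted p = 0.00124) and RRN10 by -0.25 ± 0.05 (adjusted p = 0.00496). The RRN10 probe was dim, at 111 to 158 intensity units, and its change was -0.12 after normexp correction, where it no longer passed, -0.50 with quantile normalization and -0.70 with spike-in scaling.

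RRN5, the fourth gene of the upstream activating factor, did not pass. Its levels were -2.21 and -2.04 at 0 min and -2.19 and -2.23 at 90 min, which overlapped. The change was -0.08 ± 0.07 (adjusted p = 0.331, 95% confidence interval -0.25 to 0.091). It passed as a fall on unscaled signals (-0.28) and under spike-in scaling (-0.53). RRN5 was the only member with more than 1 probe, and its second, dimmer probe had a change of -0.007 (adjusted p = 0.934).

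TFIIIC binds inside transfer RNA genes and places TFIIIB, which in turn recruits polymerase III. TFC7 had the largest change of the 40 genes. It encodes a subunit of the TFIIIC arm that also holds Tfc1 and Tfc4. TFC7 measured -0.64 and -0.58 at 0 min, and 1.05 and 1.07 at 90 min. Both pairs of replicates were tight, and the later arrays were far higher. The rise was 3.17-fold (change 1.67 ± 0.06, adjusted p = 1.17e-06), and 96% of all genes had a lower change. Over all genes, 8.92% rose at least 2-fold, and TFC7 was the only one of the 40 to do so. Its change remained between 1.21 and 1.71 under the alternatives tried, the lower value with spike-in scaling.

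The partners of Tfc7 moved the other way or did not pass. TFC8 changed by -0.33 ± 0.07 (adjusted p = 0.00322), TFC4 by -0.28 ± 0.06 (adjusted p = 0.00542) and TFC1 by -0.23 ± 0.06 (adjusted p = 0.0135). The TFC1 call was lost without replicate 1 at 0 min (change -0.18) and without replicate 2 at 90 min (-0.21). TFC3, which encodes the largest TFIIIC subunit, had levels of -1.04 and -1.06 at 0 min and of -0.91 and -1.01 at 90 min, and its change of 0.09 ± 0.06 did not pass (adjusted p = 0.226). TFC6, at 0.06 ± 0.06, did not pass either (adjusted p = 0.399). With spike-in scaling TFC3 and TFC6 passed as falls, at -0.37 and -0.40.

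In TFIIIB no member passed. BRF1, the subunit related to the polymerase II factor TFIIB, stood at -0.49 and -0.41 at 0 min and at -0.55 and -0.59 at 90 min, with a change of -0.12 ± 0.06 (adjusted p = 0.0953, 95% confidence interval -0.27 to 0.018). BDP1 had overlapping arrays, at -0.92 and -1.01 at 0 min and at -0.96 and -1.06 at 90 min, and a change of -0.05 ± 0.07 (adjusted p = 0.513). Both passed as falls with no scaling (BRF1 -0.32, BDP1 -0.24) and with spike-in scaling (-0.58 and -0.50). The gene for the third TFIIIB component, the TATA-binding protein gene SPT15, was looked at after the other values were seen and fell by 0.32 ± 0.06 (adjusted p = 0.0028).

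MAF1, for the repressor of polymerase III, had nearly the same level at both times. It measured -0.54 and -0.48 at 0 min and -0.57 and -0.48 at 90 min. The time points overlapped, and the change was -0.01 ± 0.06 (adjusted p = 0.845, 95% confidence interval -0.17 to 0.14). With spike-in scaling it was -0.47 and passed. Maf1 is known to be controlled through its phosphorylation and its place in the cell, and arrays do not measure either.

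Ratios between partners were then formed within each array, because a ratio of this kind is free of the scaling between arrays. The change of a ratio equals the difference between the changes of its genes given above, so it is not separate evidence. For 12 pairs of known partners, the log2 ratio was set relative to its mean at 0 min. With 2 arrays per group an exact two-sided permutation test cannot give a p below 0.333, so no ratio could pass at 0.05. The RPA43 to RPA14 ratio was 0.03 and -0.03 at 0 min and -0.73 and -0.80 at 90 min, a change of -0.76 (SD 0.04 at 0 min and 0.05 at 90 min). The RPA43 to RRN3 ratio changed by -1.56 (SD 0.05 and 0.02) and the TFC1 to TFC7 ratio by -1.90 (SD 0.11 and 0.05). These 3 pairs had the largest changes of the 12, and their time points were several SDs apart (exact permutation p = 0.333 for each). Most of the other pairs did not overlap between the time points either. How often ratios of unrelated genes overlap was not counted.

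Other partners stayed closer to each other. RPA190 to RPA135 changed by only -0.09, though its arrays did not overlap between the time points (SD 0.004 and 0.03). RPO31 to RET1 changed by -0.02 with overlapping arrays (SD 0.20 at 0 min). BRF1 to BDP1 overlapped as well, with a change of -0.07 (SD 0.12 at 0 min). The stalk pair of polymerase III, RPC25 to RPC17, changed by -0.39 (SD 0.09 and 0.16), and RPC31 to RPC34 by -0.37 (SD 0.09 and 0.02), both without overlap. Ratios of RPC40 to RPC19 (0.21), RPA49 to RPA34 (0.20), RPC53 to RPC37 (-0.19) and RPC82 to RPC34 (-0.14) had arrays that did not overlap between the time points, but SDs of up to 0.17.

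**Figure D4:**
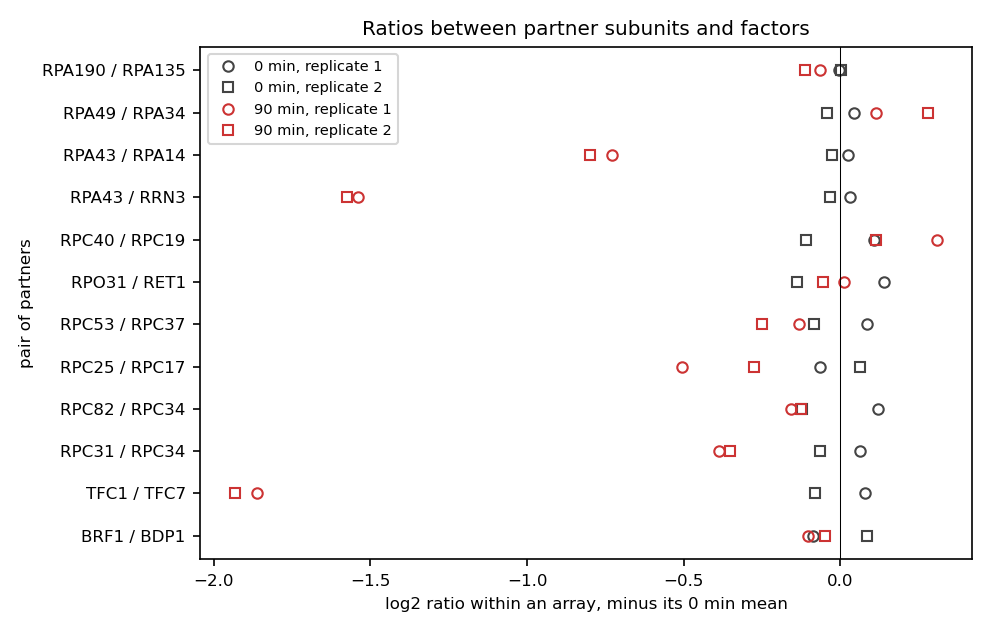
Log2 ratio between the signals of 2 partner genes on the same array, relative to the mean of the 0 min arrays, for 12 pairs; grey symbols are 0 min and red symbols 90 min arrays. The ratios of RPA43 to RPA14, RPA43 to RRN3 and TFC1 to TFC7 have the largest changes, at -0.76, -1.56 and -1.90.

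Further genes of the same processes were counted from lists. Of 15 other factors of ribosomal DNA and polymerase III transcription, 9 fell and 3 rose, around a middle value of -0.31. The shares over all genes were 46.2% fallen and 30.3% risen. NHP6A, for a chromatin protein that assists polymerase III, changed by -0.68 ± 0.06, the elongation factor gene SPT5 by -0.41 ± 0.07 and PZF1, for the TFIIIA protein of the small ribosomal RNA genes, by -0.39 ± 0.08. FPT1, a factor found near transfer RNA genes, rose by 0.45 ± 0.07. NHP6B, a close relative of NHP6A whose probe may share its signal, rose by 0.17 ± 0.06, as did NET1, a nucleolar protein gene, at 0.17 ± 0.06; the calls of NHP6B (0.15 to 0.19) and NET1 (0.13 to 0.22) were lost without any 1 of the 4 arrays and with quantile normalization. None of these 3 rises was kept with spike-in scaling, nor those of NHP6B and NET1 without scaling.

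Of 16 genes on a list of kinases, phosphatases and an exporter linked to Maf1, 7 fell, beside 46.2% of all genes. A further 5 did not pass, and PSY4, KNS1 and MSN5 were among those that rose. A place on this list does not mean that the protein acts on Maf1 itself. TPK3 encodes a form of the protein kinase A catalytic subunit, and SCH9 a growth kinase; these kinases phosphorylate Maf1. TPK3 changed by -0.60 ± 0.06 and SCH9 by -0.42 ± 0.06. PPH3, for the catalytic subunit of a phosphatase that dephosphorylates Maf1, fell 1.63-fold (change -0.71 ± 0.07, adjusted p = 0.000133), while PSY4, of the same phosphatase, rose by 0.29 ± 0.06. KNS1, a kinase gene, rose by 0.30 ± 0.07, and MSN5, for the exporter, by 0.23 ± 0.06. The MSN5 call was also lost without replicate 2 at 0 min (0.20). The rises of PSY4, KNS1 and MSN5 did not pass with no scaling and turned negative with spike-in scaling.

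RNase P and RNase MRP process transfer RNA and ribosomal RNA precursors. Of their 11 protein genes 6 fell, 2 rose and 3 did not pass, beside 46.2% fallen and 30.3% risen over all genes. The median change of the 11 was -0.27. POP3, RPP1 and POP8 changed by -0.71 ± 0.07, -0.68 ± 0.06 and -0.66 ± 0.07. RPR2, which encodes a subunit of RNase P, rose 2.40-fold (change 1.26 ± 0.09, adjusted p = 2.38e-05), and POP5 rose by 0.36 ± 0.06, or -0.09 with spike-in scaling. In the transfer RNA splicing endonuclease SEN34 (-0.55 ± 0.06), SEN54 (-0.36 ± 0.06) and SEN15 (-0.23 ± 0.06) fell, and SEN2 rose by 0.27 ± 0.07, a change that was -0.18 with spike-in scaling. The SEN2 call was lost without replicate 1 at 0 min (0.23) and without replicate 2 at 90 min (0.19), and the SEN15 call without replicate 2 at 0 min (-0.20).

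Of 18 general factor genes of polymerase II, 8 fell, 5 rose and 5 did not pass, with a median of -0.01. Over all genes 46.2% fell and 30.3% rose. TFB1, a TFIIH gene, changed by -0.33 ± 0.08, a call that was lost without replicate 1 at 0 min (-0.28). The genes that rose were TFB5 (0.60 ± 0.06), SSL1 (0.44 ± 0.05) and SSL2 (0.29 ± 0.08) of TFIIH, SUA7 (0.47 ± 0.06) for TFIIB, and TFG1 (0.32 ± 0.06) of TFIIF. None of these 5 passed with spike-in scaling, where SSL1, SSL2 and TFG1 had negative values. Of 9 polymerase I and III transcripts that were looked for by their locus tags, none had a matching probe, so the output of the enzymes was not measured here.

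The number of the 40 genes that fell was 28 with median scaling and with quantile normalization too, and 34 with no scaling. With spike-in scaling 37 fell (92.5%) and 2 rose, against 66.6% fallen and 12.1% risen over all genes. These counts depend on the shift of -0.45 shared by every gene. The spike-in level itself differed by 0.24 between the 0 min arrays, an error that the p-value of each gene treats as its own. In the test against a minimum log2 change of 0.5, limma's treat, 3 of the 40 genes fell (7.5%, against 9.88% of all genes) and 2 rose (5.0%, against 13.4%). RRN3 and TFC7 were the genes that rose in both of these settings.

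**Figure D5:**
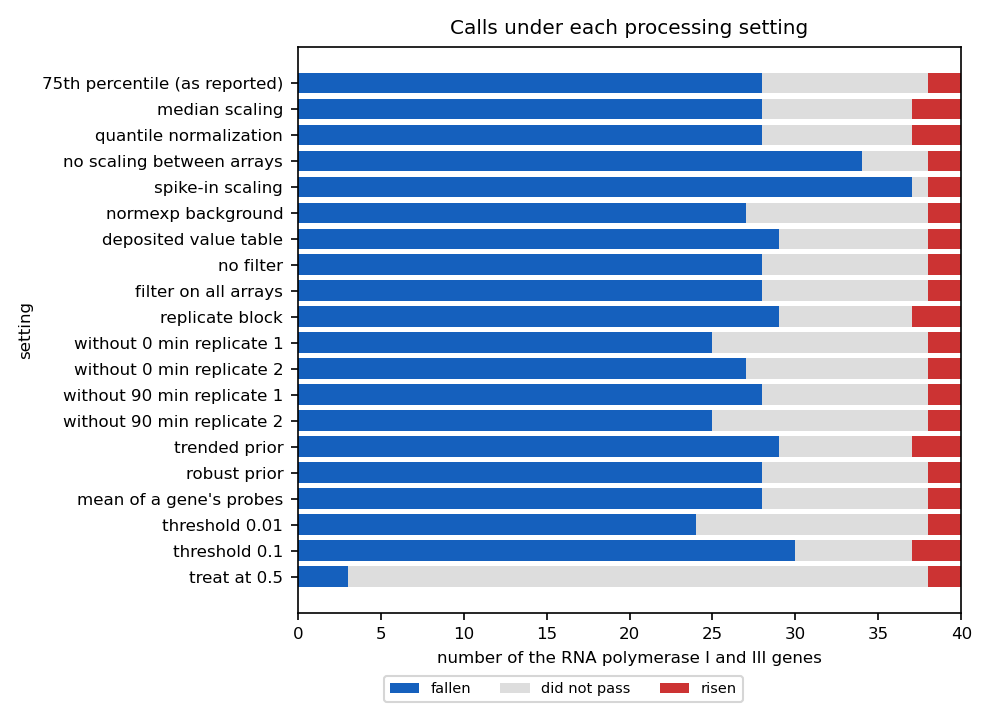
Number of the 40 genes that fell, did not pass or rose under each processing setting, as horizontal bars from 0 to 40. Between 24 and 37 genes fell and 2 or 3 rose in every setting except the test against a minimum change, treat at 0.5, where 3 fell and 2 rose.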

How the data were processed

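The authors deposited scanner files from Agilent Feature Extraction 10.7.3.1 with background-subtracted spot intensity, per the file headers, and other columns with flags per spot. The deposited value table holds log2 values; the submitters' processing notes name limma without steps. Here, log2 processed signals were centred on the 75th percentile of their own array, and duplicate spots averaged without outlier spots (3 to 10 per array). A probe was tested where both arrays of either group had it well above background (6175 of 6256), and the brightest probe stood for a gene (6144 genes). Names came from the RefSeq R64 gene table by locus tag (5748 probes) or accession (17). The array design used sacCer2, so no positions are given. limma 3.58.1 (R 4.3.3) tested 90 min against 0 min, two-sided, with Benjamini-Hochberg adjustment and no block. The 40 genes and the other lists were chosen with earlier results of these data known. All 40 are named, with up to 4 called genes of largest change from each other list and those against a list's majority, except for a result that is not reported here. In simulated data 5944 of 6144 genes were left unchanged, with noise drawn independently. The same test recovered 20 of 50 shifts of 0.25 and 49 of 50 of 0.5, and called 22 of the unchanged genes. In the data 76.5% of genes passed, so neither the recovery nor the rate of false calls carries over to them. The groups share replicate numbers, and replicate differences correlated at r = 0.20 between them over probes, but the labels do not say what a number marks, so no pairing was assumed. The number of arrays limits the precision.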

Additional observations from a re-analysis of the deposited data

How the results depend on the processing

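With 19 alternatives, RRN3 and TFC7 rose in each, and 23 of the 28 fallen genes fell in each except the test against a minimum log2 change of 0.5 (treat). That test left 3 of the 40 genes fallen, and 607 fallen and 822 risen over all genes. Spike-in scaling left 745 genes risen over all. The median change of the 40 genes was -0.26 with median scaling, -0.50 with no scaling between arrays and -0.76 with spike-in scaling. Leaving out single arrays gave medians of -0.36 to -0.29, with 25 to 28 fallen and 2 risen of the 40, and 2484 to 2671 fallen and 1699 to 1785 risen over all genes. With spike-in scaling the change was -0.37 for TFC3, -0.40 for TFC6, -0.14 for URA3, -0.0065 for FPT1, -0.28 for NET1, -0.28 for NHP6B, -0.089 for POP5, -0.18 for SEN2, -0.010 for SSL1, -0.16 for SSL2, -0.13 for TFG1, -0.15 for KNS1, -0.23 for MSN5 and -0.16 for PSY4; with no scaling it was -0.022 for NET1 and -0.024 for NHP6B. These scalings lower every gene by the same amount, and the spike-in level differed by 0.24 between the 0 min arrays. With a replicate block RPB5 passed as a fall (adjusted p = 0.0235) and RPA14 as a rise (adjusted p = 0.0383), which gave 29 fallen and 3 risen of the 40, and 2974 fallen and 1952 risen over all genes. The planned description of promoter motifs was not run, since no promoter sequence was used here. In the fit used in Results, the p-values rest on 2 residual degrees of freedom beside 4.46 of the prior. The prior degrees of freedom of the alternatives are not given here. For MSN2, limma gave adjusted p = 1.34e-06 in the fit used in Results (change 2.47). It gave adjusted p = 1.25e-26 with no scaling (change 2.28) and 6.73e-35 with spike-in scaling (change 2.02). These far lower values came with smaller changes, so adjusted p-values cannot be compared directly between settings.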

Other observations

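Genes next to the 40 on the chromosomes were looked at after the values above were seen. Of 75 neighbours that were tested and are not among the 40, 35 fell, 24 rose and 16 did not pass, beside 46.2% fallen and 30.3% risen over all genes. Their median change was -0.13, and so was that of all genes. RPA190 and RPA43 are neighbours that are read in opposite directions, and both fell. YOR342C, on the other side of RPA190, fell 2.63-fold (change -1.40 ± 0.06, SE). SSH4, a gene for the sorting of membrane proteins, is next to RRN3 and rose 1.79-fold (change 0.84 ± 0.06).

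Some neighbours went strongly against the gene beside them. CAT2, the carnitine acetyltransferase gene next to RRN11, rose 14.5-fold (change 3.86 ± 0.07) while RRN11 changed by -0.28. URA10, of pyrimidine synthesis, next to RRN9, rose 5.11-fold (change 2.35 ± 0.05) while RRN9 changed by -0.46. The neighbours of TFC7 rose or fell less than it did, with INP53 at 0.52 ± 0.06 and YOR111W at -0.31 ± 0.07.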
